A study of Mus musculus with 8 samples.

Results

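Endothelium catches circulating leukocytes from the blood stream through a small set of adhesion molecules, and 7 of their genes were followed in lungs of newborn mice treated with retinoic acid, dexamethasone or both. The genes were Vcam1, Icam1, Icam2, Sele, Selp, Selplg and Cd34. Every probe set (a group of short probes read out as 1 signal) whose symbol in the array's annotation was one of them was taken, which gave 10 of the 12422 probe sets left once 66 control probe sets were set aside. Vcam1 had 3 probe sets, Cd34 had 2 and the others had 1 each, so that 7 of the 8251 genes with a probe set of their own are described.

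Whole-lung total RNA was measured on 8 Affymetrix arrays in 4 groups of 2. Per the labels, the mice were given retinoic acid or oil when 3 days old and dexamethasone or saline on day 4, after which the lungs were snap frozen. RA-Dex lungs received retinoic acid and then dexamethasone, Dex lungs received dexamethasone without retinoic acid, RA lungs received retinoic acid without dexamethasone, and the Dil lungs are read here as those that had oil and then saline, the remaining combination, since the labels leave the word unexplained. The labels give no dose, strain or hour of collection, and they do not say whether replicates a and b are separate animals. Each p-value therefore reflects the spread of these samples alone, which may be technical.

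Leukocytes leave the blood in steps. The selectins Sele (E-selectin, made by activated endothelium) and Selp (P-selectin, stored in endothelial and platelet granules) catch leukocytes so that they roll, by binding sugars on carriers such as Selplg (PSGL-1), which leukocytes themselves carry. Firm arrest follows when leukocyte integrins bind Vcam1, Icam1 and Icam2 on endothelium. Icam2 is made constantly by resting endothelium, whereas Vcam1, Icam1 and Sele are known to be raised by inflammatory cytokines through the transcription factor NF-kappaB. Cd34 is a sialomucin of capillary endothelium and of blood progenitors. Vcam1 and Icam1 are also made outside endothelium, Icam1 by alveolar type I cells.

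The promoters of Icam1 and Sele are shown because both genes are textbook targets of NF-kappaB, while on these arrays Icam1 lay well above the background level and Sele near or below it. The 250 bases before each start, from RefSeq on GRCm38.p6, are printed 5′ to 3′ with motif matches in capitals, Icam1 at chr9:21015690-21015939 and Sele at chr1:164047984-164048233, both on the plus strand.
Icam1: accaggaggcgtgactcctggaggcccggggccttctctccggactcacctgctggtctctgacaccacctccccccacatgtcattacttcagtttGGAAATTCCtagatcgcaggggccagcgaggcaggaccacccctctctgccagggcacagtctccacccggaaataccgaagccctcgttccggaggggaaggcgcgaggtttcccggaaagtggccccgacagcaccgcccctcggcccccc
Sele: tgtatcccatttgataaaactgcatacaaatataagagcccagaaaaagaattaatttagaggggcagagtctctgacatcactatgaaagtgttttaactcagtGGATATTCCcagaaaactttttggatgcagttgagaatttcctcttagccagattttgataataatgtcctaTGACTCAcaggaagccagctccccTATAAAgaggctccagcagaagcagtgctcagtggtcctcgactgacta
The letters GGANNTTCC, a part of many NF-kappaB sites, chosen with these sequences in view, were found at -153 to -145 of Icam1 (matching on both strands) and at -145 to -137 of Sele (plus strand), and in 3.59% of all 32851 windows of this length. Sele also held TATAAA at -49 to -44 (in 12.4% of windows) and TGACTCA, the letters bound by AP-1 factors, at -73 to -67 (in 4.46%). The NF-kappaB consensus motif itself (in 7.25% of windows, and overlapping GGANNTTCC where a G precedes that match) and TGTTCT, the core letters of the glucocorticoid response element (in 16.1%), had no match in either window. The windows of Selp and Cd34 held none of these 5 motifs. All motifs were searched on both strands, and a match is a description of letters only. Promoter windows for Vcam1, Icam2 and Selplg were not used here.

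The arrays had been scaled to a common level, so that median signals lay between 316 and 342. Signals under 85.3, the 25th percentile of all values, were treated as not told apart from background, and were raised to that floor before log2 was taken. Of the 10 probe sets, 7 passed a filter on the mean signal over all arrays (201) and stood for 5 genes, Vcam1, Icam1, Icam2, Selplg and Cd34. They entered a fit of 7309 probe sets with limma, in which a change is an adjusted p under 0.05 (Benjamini-Hochberg). As a check of the tissue, all 16 endothelial markers with a probe set on the array (among them Pecam1, Cdh5, Tek and Kdr) passed the same filter. In bulk lung, fewer cells of a type and less RNA per cell cannot be told apart.

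Vcam1, the endothelial ligand of the integrin formed by Itga4 and Itgb1, was the 1 member called in the fit with the filter. Its brightest probe set (92558_at) had signals of 238 and 475 in RA-Dex lungs, 397 and 375 in Dex lungs, 1253 and 1501 in RA lungs, and 1198 and 685 in Dil lungs. All 4 dexamethasone arrays lay below all 4 others, as in 7.78% of all tested probe sets. The group means were 357 ± 168 in RA-Dex, 386 ± 15.7 in Dex, 1377 ± 175 in RA and 941 ± 362 in Dil (SD, n = 2 each). Averaged over the day 3 treatment, Vcam1 fell to 0.323 of its level with dexamethasone (log2 fold change -1.63 ± 0.243 SE, 95% interval -2.16 to -1.09, adjusted p = 0.00198). It was 1 of 7 member probe sets called, against 7.83% of all tested probe sets called in that contrast and 3.57% called lower. With no filter the same fold change had an adjusted p of 0.0837, when that of Icam2 was 0.0789, and neither passed.

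The fall of Vcam1 was taken apart by day 3 treatment. After retinoic acid, RA-Dex against RA gave 0.245 of the level (-2.03 ± 0.343, interval -2.78 to -1.27, adjusted p = 0.00766), where 3.5% of all tested probe sets were called and 1.22% called lower, and 1 of 7 member probe sets. With no filter its adjusted p was 0.162, against 0.131 for Selplg. The call was also lost when RA-Dex replicate a, the lowest array of all, was left out (-1.53, adjusted p = 0.0752), and when RA replicate b, the highest, was left out (-1.90, adjusted p = 0.0505). Without retinoic acid, Dex against Dil gave 0.426 of the level (-1.23 ± 0.343, interval -1.99 to -0.47), which did not pass (adjusted p = 0.0906). The Dex arrays lay below the Dil arrays without overlap, as in 24.6% of all tested probe sets. The difference between the 2 dexamethasone effects was -0.80 ± 0.485 and did not pass either (interaction, adjusted p = 0.898), so the effect was not shown to depend on retinoic acid. In order of level, RA lungs stood above Dil, Dex and RA-Dex. The neighbours RA and Dil differed by 0.60 ± 0.343 (adjusted p = 0.709) and RA-Dex and Dex by -0.20 ± 0.343 (adjusted p = 1), neither past the threshold.

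**Figure D1:**
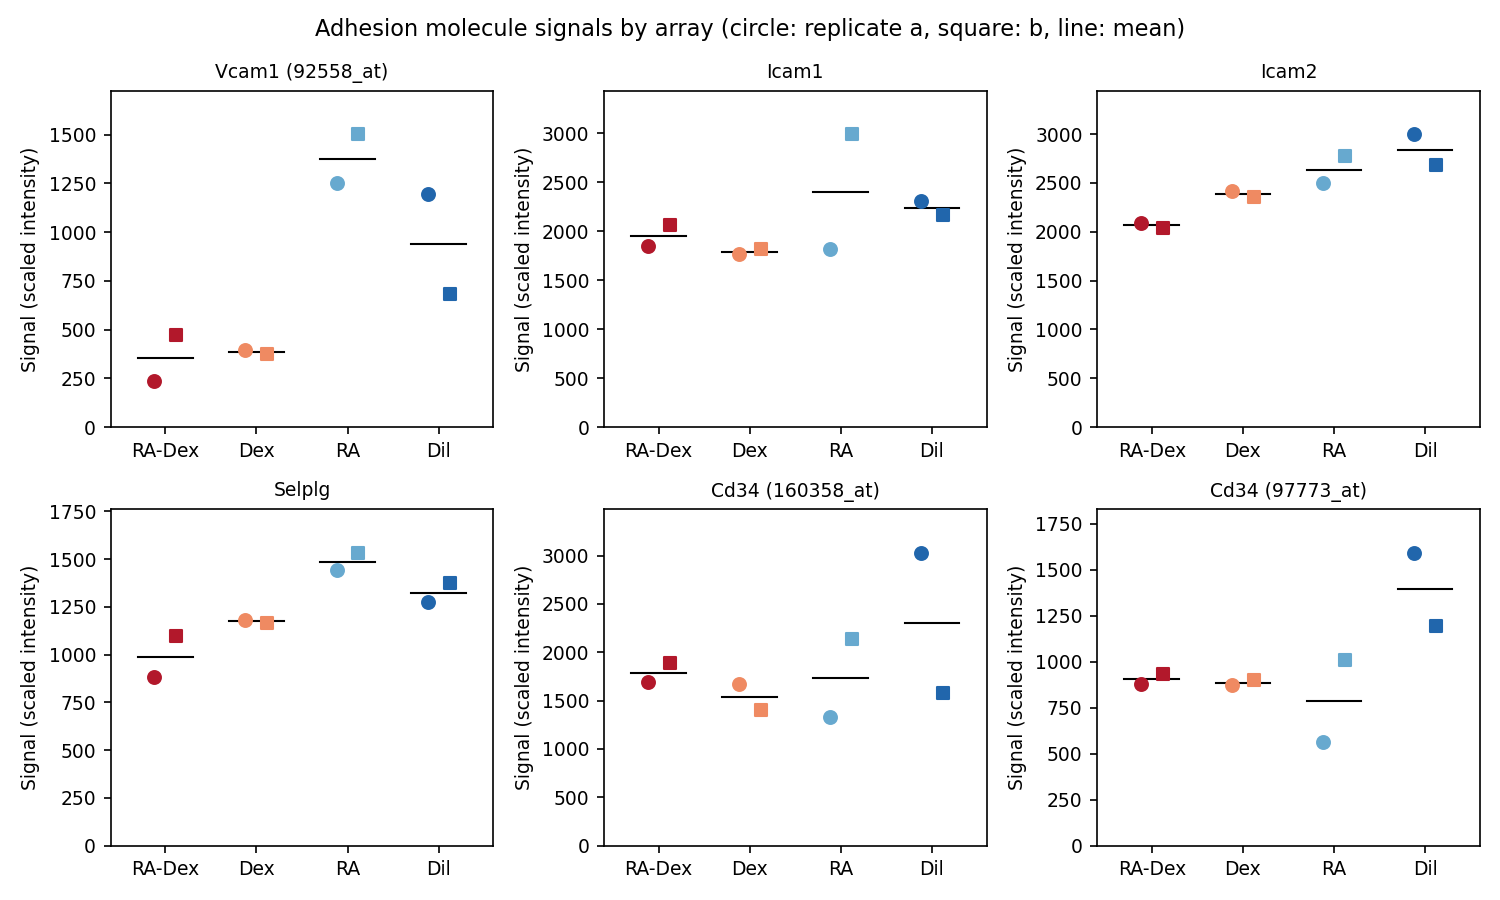
Signal (scaled intensity, linear axis from 0) of the 6 brighter probe sets of the adhesion molecules in each array, by group, with replicate a as a circle, replicate b as a square and the mean of the 2 arrays as a line. The 4 dexamethasone arrays of Vcam1 lie between 238 and 475, below all other arrays, whereas those of Icam1 lie between 1766 and 2060 and overlap RA replicate a at 1814.

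The other probe sets of Vcam1 were dim. Probe set 92560_g_at had signals of 120 and 190 in RA-Dex, 40.4 and 325 in Dex, 185 and 237 in RA, and 321 and 323 in Dil. Its Dex arrays spanned nearly the whole range, with Dex replicate a at the floor and Dex replicate b as high as Dil. It had a value of -0.71 ± 0.417 for the averaged effect (interval -1.63 to 0.21, adjusted p = 0.375). Probe set 92559_at, below the filter, had signals of 59.6 and 47.1 in RA-Dex, 139 and 57.2 in Dex, 259 and 164 in RA, and 217 and 36.8 in Dil. Of its 4 dexamethasone arrays 3 were at the floor, as was Dil replicate b. With values at the floor it gives no measured change, and the call of Vcam1 rests on the 1 bright probe set.

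**Figure D2:**
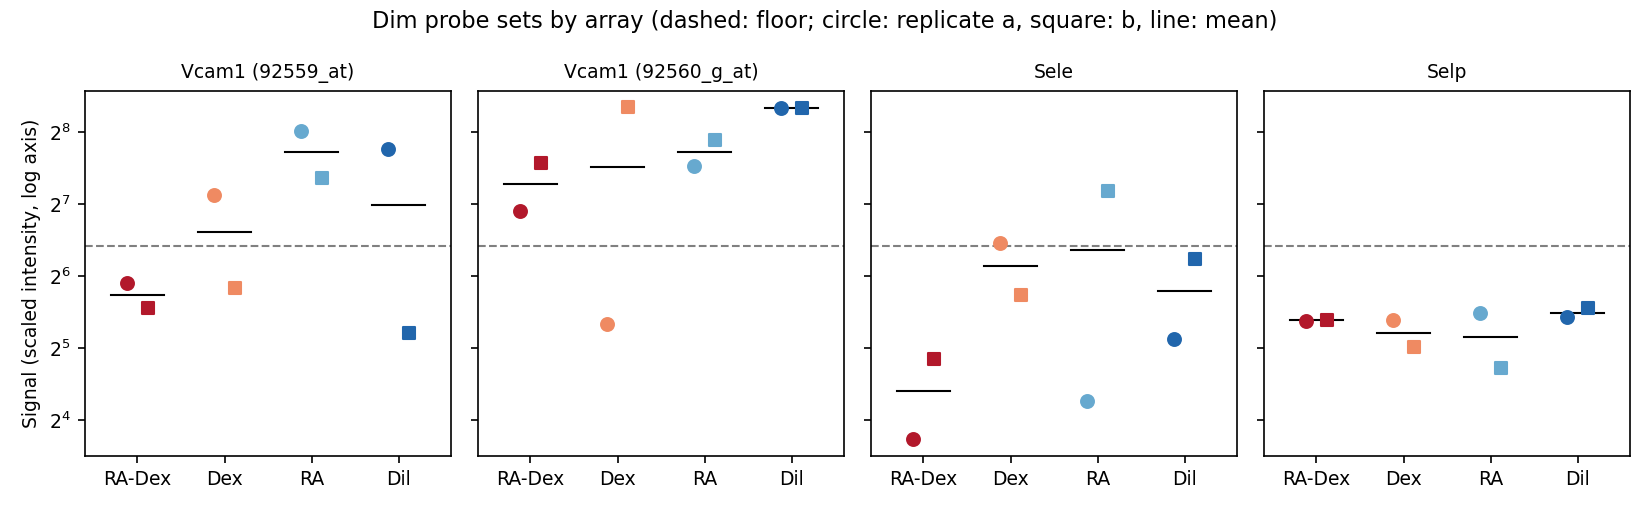
Signal (scaled intensity, log axis) of the 4 dim probe sets in each array, by group, with the floor of 85.3 as a dashed line, replicate a as a circle, replicate b as a square and the mean of the 2 arrays as a line. Selp lies under the floor in all 8 arrays, and Sele lies above it in 1 Dex and 1 RA array.

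The 2 immunoglobulin-like partners of Vcam1 moved less. Icam1, the ligand of the leukocyte integrins that share the Itgb2 chain, had signals of 1847 and 2060 in RA-Dex, 1766 and 1818 in Dex, 1814 and 2989 in RA, and 2307 and 2163 in Dil. Dex lay below Dil without overlap, as in 24.6% of all tested probe sets, but RA replicate a was as low as the dexamethasone arrays. The averaged effect was -0.29 ± 0.154 (interval -0.63 to 0.05, adjusted p = 0.327), and without RA replicate a it was -0.47 and passed (adjusted p = 0.0407). Across groups, RA-Dex and Dex differed by 0.12 ± 0.218, and RA and Dil by 0.06 ± 0.218, both with an interval that spans 0.

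Icam2, the constant ligand on resting endothelium, had signals of 2094 and 2040 in RA-Dex, 2413 and 2352 in Dex, 2501 and 2771 in RA, and 2997 and 2679 in Dil. The 4 dexamethasone arrays lay below the 4 others without overlap, in a narrow range, as did those of 7.78% of all tested probe sets. The averaged value was 0.813 of the level (-0.30 ± 0.106, interval -0.53 to -0.06), unadjusted p = 0.0171, which did not pass over all probe sets (adjusted p = 0.125). With no filter the adjusted p was 0.0789, next to 0.0837 for Vcam1. RA-Dex against RA gave -0.35 ± 0.15 and Dex against Dil -0.25 ± 0.15 (adjusted p = 0.287 and 0.502). The group means were 2067 ± 37.8 in RA-Dex, 2383 ± 42.8 in Dex, 2636 ± 191 in RA and 2838 ± 225 in Dil (SD, n = 2 each). In that order RA-Dex and Dex differed by -0.20 ± 0.15 and RA and Dil by -0.11 ± 0.15, neither past the threshold, while Dex was not tested against RA.

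The difference in size between Vcam1 and the other tested members is given as a description, since Vcam1 was singled out with its fall known. For each array the log2 signal of another member was subtracted from that of Vcam1 (92558_at), and the mean over the 4 dexamethasone arrays was set against that over the 4 others. The difference was -1.34 against Icam1, -1.33 against Icam2, -1.25 against Selplg, and -1.41 and -1.44 against the 2 probe sets of Cd34. When 1 array was left out at a time the 5 differences lay between -1.75 and -1.10.

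**Figure D3:**
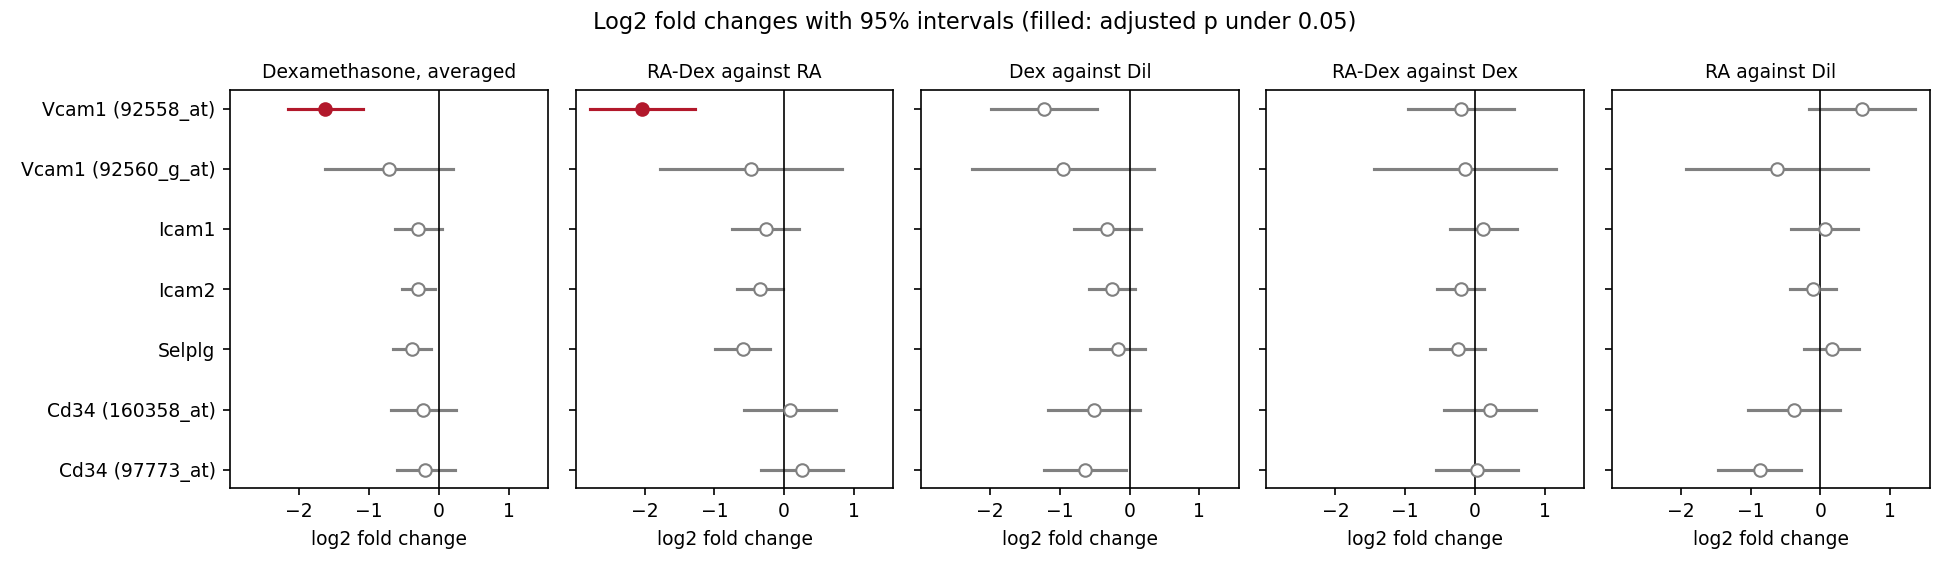
Log2 fold change (x axis) with its 95% interval for the 7 tested probe sets (rows) in 5 contrasts (panels), with filled points where the adjusted p was under 0.05. The filled points are those of Vcam1 (92558_at), at -1.63 for the averaged dexamethasone effect and -2.03 for RA-Dex against RA.

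The selectins gave no usable level. Selp had signals of 41.4 and 41.9 in RA-Dex, 41.9 and 32.3 in Dex, 44.8 and 26.3 in RA, and 42.9 and 46.9 in Dil, all under the floor. Sele had signals of 13.3 and 28.8 in RA-Dex, 88.1 and 53.2 in Dex, 19.2 and 145 in RA, and 34.8 and 75.4 in Dil, with 2 of 8 arrays above the floor. Values under the floor have no order, so no fold is given for either gene. Platelets, which also store Selp, gave 2 testable marker genes, Gp1bb at 0.47 ± 0.441 and Gp9 at -0.18 ± 0.236 for the averaged effect, neither past the threshold.

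Selplg, the carrier of selectin ligands on leukocytes, had signals of 883 and 1096 in RA-Dex, 1181 and 1166 in Dex, 1440 and 1532 in RA, and 1275 and 1372 in Dil. All 4 dexamethasone arrays lay below the others, as in 7.78% of all tested probe sets. The averaged value was 0.767 of the level (-0.38 ± 0.126, interval -0.66 to -0.11, adjusted p = 0.0973), and RA-Dex against RA gave 0.662 (-0.59 ± 0.178, interval -0.99 to -0.20, adjusted p = 0.111). Neither passed. Most lists of leukocyte markers also held genes called lower, while the neutrophil list held none in the fit with the filter. Over all tested probe sets 3.57% were called lower. Of 9 tested pan-leukocyte markers 5 fell with dexamethasone and 0 rose, with a median of -0.78 (all tested probe sets, -0.03), and the summed signal of the 11 on the array was 12249 and 12556 in RA-Dex, 11154 and 12221 in Dex, 18977 and 20950 in RA, and 19023 and 19204 in Dil. None of the 11 was at the floor on every array. They included Cd52, a small surface protein of lymphocytes (-1.32 ± 0.137), Coro1a, an actin-binding protein of blood cells (-0.90 ± 0.137), and the signalling adaptor Tyrobp (-0.82 ± 0.123), which kept their calls under every alternative run. The count of 5 became 3 with no filter, 3 when RA-Dex replicate b was left out and 3 when Dex replicate a was left out. Among macrophage markers 1 of 7 tested fell and 0 rose (median -0.47). That count was 0 when RA-Dex a, Dex a, Dex b or RA a was left out, and 2 without both Dil arrays and under the stricter filter. Among B and T lymphocyte markers 3 of 4 tested fell and 0 rose (median -0.82), all 3 of them genes of B cells (Ighm, Cd79a and Cd79b). The count was 1 without both Dil arrays, with no filter and under the stricter filter, and was also lower without some single arrays. Cd79a kept its call under 4 of 14 alternatives. Its call was lost, among others, with no filter (adjusted p = 0.268) and under quantile normalization (0.0613). The same held with no intensity trend (0.0867) and with the replicate letter as a block (0.0736). Cd79b kept its call under 9 of 14 and lost it with no filter (0.0829), while Ighm kept its call under all 15. The T cell gene Cd4 did not pass, with values between -0.54 and 0.22 over the settings. Another 3 T cell markers were at the floor on every array. Among neutrophil markers 0 of 8 tested fell and 1 rose (median -0.08), with 1 fall when Dex a was left out. The one that rose was Lcn2, an iron-scavenging protein of neutrophil granules that epithelium also makes (1.02 ± 0.107, adjusted p = 0.000185). The next genes of this list by p were Ltf (-1.23 to -0.60 over the settings), S100a9 (-1.03 to -0.41) and S100a8 (-0.86 to -0.18). Their values were negative in every setting in which they were tested, without a call in the fit with the filter. The part of these cells in the values of Selplg was not tested.

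Cd34, the sialomucin, was highest in a Dil array in both of its probe sets, and no change of it passed the test. Probe set 160358_at had signals of 1693 and 1885 in RA-Dex, 1676 and 1403 in Dex, 1334 and 2133 in RA, and 3028 and 1581 in Dil. Probe set 97773_at had 878 and 932 in RA-Dex, 874 and 899 in Dex, 563 and 1011 in RA, and 1592 and 1196 in Dil. Both probe sets were highest in Dil replicate a and lowest in RA replicate a. For 97773_at, both Dil arrays stood above the other 6. RA against Dil then gave -0.87 ± 0.266 (unadjusted p = 0.00777, adjusted p = 0.44), Dex against Dil -0.64 ± 0.266 (adjusted p = 0.288) and RA-Dex against RA 0.26 ± 0.266 (adjusted p = 0.70), none past the threshold. The averaged dexamethasone values were -0.22 ± 0.211 and -0.19 ± 0.188. The Dil arrays also had the highest summed signals of mesenchyme markers, 71080 and 71618 against 59027 to 65793 in the other groups (11 genes, 0 at the floor on every array), and of skeletal muscle markers, 6147 and 6432 against 3136 to 4834 (12 genes, with Myh2 at the floor on every array). Smooth muscle and mesothelium markers were also highest there (25702 and 27819 against 20791 to 25381). Summed signals of endothelial markers (79067 and 86308 against 67671 to 85226) did not stand apart. Nor did those of blood progenitor markers (6641 and 7012 against 6146 to 7724). The part of these cells in the Cd34 values was not tested.

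As a group, the 7 tested member probe sets had a median averaged dexamethasone effect of -0.30, against -0.03 over all tested probe sets. In 3 of them (Vcam1, Icam2 and Selplg) the 4 dexamethasone arrays lay below the 4 others without overlap, against 7.78% of all tested probe sets. The same held for 3 in RA-Dex against RA (26.3% of all tested) and for 5 in Dex against Dil (24.6%). In Dex against Dil 0 of 7 passed in limma, where 3.23% of all probe sets were called, and 2 had an unadjusted p under 0.05, as did 14.9% of all. Few probe sets of any kind were called in the contrasts of retinoic acid. In RA against Dil 0 of 7 member probe sets passed in limma (0.0274% of all called), and 1 had an unadjusted p under 0.05, as did 7.99% of all. In RA-Dex against Dex 0 passed (0.0958% of all called), and 0 had an unadjusted p under 0.05, against 4.13% of all. For the interaction 0 passed (0.0137% of all called), and 1 had an unadjusted p under 0.05, as did 5.6% of all.

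The 3 genes whose profile over the 8 arrays, centred on its own mean, differed least from that of Vcam1 were Cdca7 (root mean square difference 0.359 on the log2 scale), Prep (0.381) and Egr1 (0.391), where the spread of Vcam1 about its mean was 0.906. This is a description, since all 3 were sought for their likeness.

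Among the counter-receptors that leukocytes bring to these ligands, 1 of 5 tested genes fell with dexamethasone and 0 rose (median -0.23). Over all tested probe sets 3.57% were called lower in this contrast and 7.83% in either direction. These shares apply to this list and to those below. Itgb2, the chain shared by the integrins that bind Icam1 and Icam2, had signals of 279 and 324 in RA-Dex, 272 and 336 in Dex, 687 and 623 in RA, and 363 and 482 in Dil, so that all dexamethasone arrays lay below the others. It fell to 0.577 of its level (-0.79 ± 0.193, adjusted p = 0.0294). The gene was not tested under the stricter filter, and its call was lost with no filter (adjusted p = 0.0925) and without any 1 array other than Dil replicate a (0.052 to 0.104). Itgb1, which pairs with Itga4 to bind Vcam1, had a value of 0.08 ± 0.0871 (adjusted p = 0.657), and Itgam was at the floor on all arrays.

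Of 6 tested genes that build selectin ligands 3 fell and 0 rose (median -0.28). St3gal4, which adds the sialic acid that selectins read, had signals of 1159 and 832 in RA-Dex, 1237 and 1190 in Dex, 1799 and 1751 in RA, and 1925 and 1937 in Dil. It fell to 0.589 of its level (-0.76 ± 0.133, adjusted p = 0.00534), a call kept under all 15 alternatives. Chst2, a sulfotransferase of selectin ligands, fell to 0.507 (-0.98 ± 0.196, adjusted p = 0.011), and Tpst1, which sulfates tyrosines such as those of Selplg, fell to 0.697 (-0.52 ± 0.118, adjusted p = 0.0216). St3gal6, another enzyme that adds sialic acid, had signals of 355 and 370 in RA-Dex, 346 and 345 in Dex, 217 and 248 in RA, and 228 and 254 in Dil. All 4 of its dexamethasone arrays lay above the others. Its value was 0.58 ± 0.215 (adjusted p = 0.139), which passed with no intensity trend (adjusted p = 0.0322). The count of 3 falls was 1 without RA-Dex replicate b. Chst2 lost its call there (adjusted p = 0.0573) and with no filter (0.0837). Tpst1 lost its call when any 1 array of RA-Dex b (adjusted p = 0.0971), Dex a (0.0666), Dex b (0.0915), Dil a (0.0552) or Dil b (0.0603) was left out, or both Dil arrays (0.126).

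Of the chemokines and cytokines displayed on or made by endothelium 6 of 23 on the array were bright enough to test, and 3 fell and 0 rose (median -0.51). Cxcl12, which draws leukocytes and progenitors through its receptor Cxcr4, had signals of 531 and 635 in RA-Dex, 651 and 617 in Dex, 1519 and 1350 in RA, and 2433 and 2279 in Dil. It fell to 0.33 of its level (-1.60 ± 0.129, adjusted p = 2.91e-05). Csf1, the growth factor of macrophages, fell to 0.601 (-0.74 ± 0.139, adjusted p = 0.0083), and Cx3cl1, a chemokine anchored in the endothelial membrane, fell to 0.61 (-0.71 ± 0.175, adjusted p = 0.0304). The calls of Cxcl12 and Csf1 were kept under all 15 alternatives. That of Cx3cl1 was lost when any 1 array of RA-Dex a (adjusted p = 0.0687), RA-Dex b (0.126), Dex a (0.115), RA a (0.0864) or Dil b (0.104) was left out, or both Dil arrays (0.208). It was also lost with no filter (0.141), with no intensity trend (0.0568) and with the replicate letter as a block (0.0551). Ccl4, Cxcl9 and Il6 were at the floor on all arrays.

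Of 11 tested genes of the NF-kappaB pathway 1 rose and 1 fell (median -0.25), where 7.83% of all tested probe sets were called. Nfkbia, the inhibitor that holds NF-kappaB in the cytoplasm, rose 2.59-fold (1.37 ± 0.13, adjusted p = 7.86e-05), and Tnfrsf1b, a receptor of tumour necrosis factor, fell to 0.631 (-0.66 ± 0.166, adjusted p = 0.0339). Tnfrsf1b lost its call with no filter (adjusted p = 0.106), with the replicate letter as a block (0.0614) and without any 1 array other than Dil replicate b (adjusted p = 0.0599 to 0.117). The subunit Rela had a value of -0.27 ± 0.0978 (adjusted p = 0.136).

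Of 13 other tested adhesion and junction molecules of endothelium 1 fell and 0 rose (median -0.03), where 3.57% of all tested probe sets were called lower. The one that fell was Mcam, an adhesion molecule of endothelium and pericytes, at 0.633 of its level (-0.66 ± 0.105, adjusted p = 0.00291). Of the 16 endothelial markers 2 fell, beside that same share of 3.57%, and 0 rose (median -0.13). These were the growth factor receptor Kdr (-0.86 ± 0.122) and the gap junction protein Gja4 (-1.44 ± 0.135). The summed signal of the 16 was 71646 and 85226 in RA-Dex, 67671 and 72995 in Dex, 70990 and 83897 in RA, and 79067 and 86308 in Dil, so that RA-Dex overlapped both RA and Dil, while both Dex arrays lay below both Dil arrays. Of 10 tested mesenchyme markers 1 rose and 1 fell (median -0.15). Meox2 fell (-2.21 to -1.90 over the settings) and Pdgfra rose (0.77 to 1.09), and both kept their calls under all 15 alternatives. The part of the mesenchyme, which can also make Vcam1, in the Vcam1 values was not tested.

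**Figure D4:**
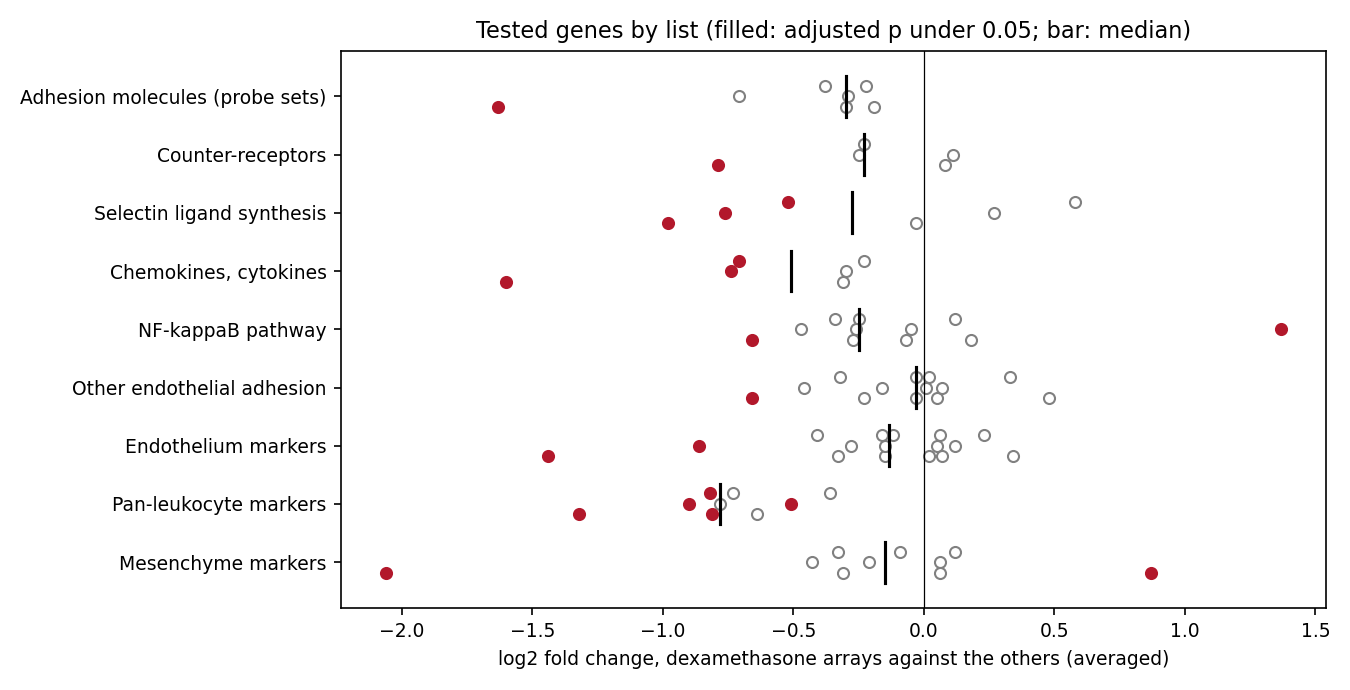
Averaged log2 fold change with dexamethasone (x axis) of the 7 tested adhesion molecule probe sets and of the tested genes of 8 lists (rows), with 1 point per probe set or gene, filled where the adjusted p was under 0.05, and a bar at the median. The bar of the pan-leukocyte markers lies at -0.78, that of the endothelial markers at -0.13 and that of the adhesion molecules at -0.30.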

How the data were processed

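The deposited values are linear intensity signals, 1 per probe set and array, and no label or header states the software that made them. Trimmed means (2% at each end) agreed across arrays (ratio 1.00004), so the intensity values the authors deposited were not normalized again. Signals were floored at the pooled 25th percentile (85.3) and taken as log2, and probe sets with a mean over 8 arrays above the pooled 40th percentile (201) were tested. Symbols came from the array's annotation, updated by Entrez ID (GRCm38.p6, names only, 10817 of 10833 probe sets with 1 symbol; 396 had several and 1193 none).

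A model with 4 group means, sharing the spread of all 8 arrays, was fitted in limma 3.58.1 (R 4.3.3; eBayes with intensity trend, two-sided, 4 residual and 6.69 prior degrees of freedom), with p-values adjusted over 7309 probe sets for each of 6 contrasts. List genes were represented by their brightest probe set. The procedure was tested on simulated data. The text names all members, up to 4 genes of each list by smallest p and the 3 genes nearest to each called member; Itgam, Ccl4, Cxcl9, Il6, Myh2, Pecam1, Cdh5 and Tek are named besides, some chosen after their values were seen. Members and lists were chosen with earlier results of these data known. Alternatives were quantile normalization, no filter, a stricter filter (60th percentile), a pseudocount, no intensity trend, the replicate letter as a block, and leaving out each array or both Dil arrays. Without both Dil arrays, the mean of RA-Dex and Dex was set against RA alone. That value is not the averaged effect itself, since Dex and RA lungs also differ in retinoic acid.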

Additional observations from a re-analysis of the deposited data

How the results depend on the processing

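The count of member probe sets called was computed again under 15 alternatives for the averaged dexamethasone effect and 14 for each of the other 5 contrasts, which were not run without both Dil arrays. For the averaged dexamethasone effect (1 called) it was 0 with no filter, and between 1 and 2 when 1 array was left out, the second being Icam1 without RA replicate a. For RA-Dex against RA (1 called) it was 0 with no filter and between 0 and 1 when 1 array was left out. In the other 4 contrasts it was 0 under each of the 14. The averaged effect of Vcam1 (92558_at) lay between -1.93 (without both Dil arrays) and -1.38 (without RA-Dex replicate a). It was called under 14 of 15 alternatives. The value of -1.93 has RA alone as its reference, so it also holds a difference in retinoic acid. A group left with 1 array was assumed to vary like the others. With the replicate letter as a replicate block, Vcam1 kept its calls (adjusted p = 0.00423 averaged and 0.0164 for RA-Dex against RA), 1 member was called in each of these contrasts as before, and the block gave 454 calls over all probe sets against 572 without it. Same-letter arrays did not deviate together throughout (correlations of their deviations -0.221 to 0.136), so the letters were not taken as pairs. Over all probe sets the averaged effect gave 122 to 272 falls (261 as reported) and 185 to 324 rises (311), with the lowest of both without RA-Dex replicate b. Dex against Dil gave 26 to 104 falls (90) and 54 to 171 rises (146), and RA-Dex against RA 21 to 103 (89) and 60 to 178 (167). RA against Dil gave 0 to 15 falls (1) and 0 to 8 rises (1), RA-Dex against Dex 0 to 9 (3) and 2 to 7 (4), and the interaction 0 to 13 (0) and 1 to 9 (1). The cause of these shifts was not tested. Depth here is signal over background, which leaves Sele, Selp and Vcam1 probe set 92559_at without a measured change.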

Other observations

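Cxcl12, the chemokine that fell furthest with dexamethasone in the lists above, also stood lower in both RA arrays (1519 and 1350) than in both Dil arrays (2433 and 2279), a value of -0.72 ± 0.182 that did not pass (limma, adjusted p = 0.302). In the opposite direction, Itgb2 stood higher in both RA arrays (687 and 623) than in both Dil arrays (363 and 482), at 0.65 ± 0.272 (adjusted p = 0.591). In RA against Dil 0.0274% of all tested probe sets were called. The share of all probe sets without overlap was not counted for RA against Dil, so these 2 separations are a description only. In RA-Dex against Dex, Cxcl12 had a value of -0.13 ± 0.182 and Itgb2 one of -0.01 ± 0.272 (adjusted p = 1 for both).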
